A study of Mus musculus with 2 samples.

Results

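Cholesterol synthesis, uptake and efflux were described in white adipose tissue through a list of 30 genes named for the mevalonate and sterol pathway, its control by the transcription factor SREBP2, and the uptake, esterification and efflux of cholesterol. The list was made by gene function. Of the 30 genes, 28 had a probe set annotated to a single gene symbol, out of 19938 such genes on the array. Acat2 and Soat1 had no matching probe set and were not analysed here. Total RNA of white adipose tissue was hybridised to Affymetrix Mouse Gene 1.0 ST arrays, which probe transcripts along their length. There was 1 array of control tissue, labelled Oma1_WT, and 1 array of Oma1-deficient tissue, labelled Oma1_KO. Age was 24 weeks in both groups, and both tissues were taken after 20 weeks of high-fat diet. No lean or chow-fed group therefore enters the comparison. The labels give neither the fat depot, the strain, the sex, the way Oma1 was disrupted, nor whether an array held a pool of mice.

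The comparison asked which transcripts differed between control and Oma1-deficient fat after the diet. Oma1, a protease of the mitochondrial inner membrane, read an intensity of 187 in the control array and 155 in the Oma1-deficient array. Which part of the transcript was lost is not given, so this value does not check the label. With 1 array per group there was no replicate check, no test was possible and no p-value is given; every direction below describes these 2 arrays and not the genotypes.

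Cells make cholesterol from acetyl-CoA. The mevalonate segment builds isoprenoid units, the squalene segment joins and closes them into lanosterol, and the sterol segment trims lanosterol to cholesterol. When sterols are scarce in the endoplasmic reticulum, Scap carries SREBP2 to the Golgi for cleavage, and the released factor raises transcription of most enzymes of the pathway. When sterols are plentiful, the Insig proteins hold Scap back, and oxysterols activate the liver X receptors, which raise the exporters Abca1 and Abcg1. Adipocytes make little cholesterol relative to what they take up from lipoproteins, and store much of it unesterified at the lipid droplet.

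Because SREBP2 acts at promoters together with the factors NF-Y, which binds CCAAT, and Sp1, which binds GC boxes, the 250 bases before the annotated start of transcription are shown for 7 members. They are the sterol enzymes Cyp51, Tm7sf2 and Sc5d, the squalene enzyme Lss and the regulator Insig1, which had the lowest values relative to control. Also shown are Lbr, which shares a reaction with Tm7sf2 but differed from it, and Hmgcs1. Hmgcs1 alone among the members with a listed window matched TCACNCCAC, the pattern searched for a sterol regulatory element. The sequences and coordinates are from RefSeq, build GRCm38.p6, written 5′ to 3′ on the gene's strand and ending at the base before the start. Capitals mark CCAAT on either strand (read as ATTGG on the other strand) and, in Hmgcs1, also the match to TCACNCCAC.
Cyp51, chr5:4104698-4104947, minus strand: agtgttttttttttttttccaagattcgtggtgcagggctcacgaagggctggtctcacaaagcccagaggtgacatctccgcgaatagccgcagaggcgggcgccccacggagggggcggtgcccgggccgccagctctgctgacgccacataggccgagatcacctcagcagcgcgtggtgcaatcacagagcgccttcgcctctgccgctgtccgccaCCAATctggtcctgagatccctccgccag
Tm7sf2, chr19:6067851-6068100, minus strand: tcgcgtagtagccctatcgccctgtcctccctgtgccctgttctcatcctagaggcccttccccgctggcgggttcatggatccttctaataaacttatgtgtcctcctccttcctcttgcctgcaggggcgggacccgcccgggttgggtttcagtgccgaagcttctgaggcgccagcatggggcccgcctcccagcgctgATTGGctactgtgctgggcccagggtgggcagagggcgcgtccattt
Lbr, chr1:181842402-181842651, minus strand: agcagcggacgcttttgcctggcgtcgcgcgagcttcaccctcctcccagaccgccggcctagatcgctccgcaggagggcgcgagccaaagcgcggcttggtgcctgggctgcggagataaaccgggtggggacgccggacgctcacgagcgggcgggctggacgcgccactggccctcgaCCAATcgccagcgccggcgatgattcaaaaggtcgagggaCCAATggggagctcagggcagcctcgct
Sc5d, chr9:42264301-42264550, minus strand: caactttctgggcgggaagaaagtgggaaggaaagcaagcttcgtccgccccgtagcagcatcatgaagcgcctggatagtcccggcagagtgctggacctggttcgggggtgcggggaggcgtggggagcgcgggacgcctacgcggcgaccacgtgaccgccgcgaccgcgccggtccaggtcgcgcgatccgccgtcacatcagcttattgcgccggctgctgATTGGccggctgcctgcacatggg
Lss, chr10:76531355-76531604, plus strand: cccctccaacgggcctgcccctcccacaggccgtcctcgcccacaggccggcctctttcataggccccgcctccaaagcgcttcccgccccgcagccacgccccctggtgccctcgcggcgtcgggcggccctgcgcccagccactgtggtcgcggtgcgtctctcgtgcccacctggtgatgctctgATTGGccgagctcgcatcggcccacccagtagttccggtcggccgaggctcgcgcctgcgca
Insig1, chr5:28071162-28071411, plus strand: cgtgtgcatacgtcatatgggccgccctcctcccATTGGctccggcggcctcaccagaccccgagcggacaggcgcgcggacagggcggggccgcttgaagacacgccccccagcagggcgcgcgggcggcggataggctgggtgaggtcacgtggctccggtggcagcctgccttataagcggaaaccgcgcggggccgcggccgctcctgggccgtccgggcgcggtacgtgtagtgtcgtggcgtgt
Hmgcs1, chr13:119690101-119690350, plus strand: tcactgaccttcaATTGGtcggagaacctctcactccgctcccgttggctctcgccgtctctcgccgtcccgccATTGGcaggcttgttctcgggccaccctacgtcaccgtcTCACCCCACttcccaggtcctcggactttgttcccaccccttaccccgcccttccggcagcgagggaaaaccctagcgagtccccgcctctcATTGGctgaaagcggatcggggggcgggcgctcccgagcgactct

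In Cyp51 the CCAAT match began 29 bases before the start, in Sc5d 24, in Tm7sf2 47 and in Lss 62. Lbr had CCAAT matches 68 and 28 bases before its start. Insig1 had its match farther out, at 216 bases. In Hmgcs1 the match to the sterol regulatory element pattern, TCACCCCAC, began 137 bases before the start, with ATTGG at 237, 176 and 45 bases. The matches of different motifs did not overlap in these windows.

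Promoter windows were listed for 22 of the 28 measured members, 15 of them synthesis enzymes. CCAAT occurred in at least 1 window of all 15 synthesis enzymes and of 20 of the 22 members. Across the table, 33.8% of 32851 windows and 37.5% of 27025 genes held CCAAT, as did 39.5% of the 9106 genes that also passed the intensity filter described below. Abca1, an exporter, and Scap were the 2 members without it. The GC box GGGCGG, searched on both strands, was in 14 of the 15 synthesis enzymes, against 35.4% of all genes and 64.0% of those above the filter. TCACNCCAC on either strand was found in 1 member, Hmgcs1, and in 1.22% of all genes. No other form of the sterol regulatory element was searched, so a window without this match may still hold one. The synthesis enzymes Fdps, Fdft1 and Sqle had no listed window. Members with CCAAT were found on either side in the array values, among them Cyp51, which read lower, and Lbr, which did not. Over all genes above the filter the median log2 difference was -0.07 with CCAAT and -0.06 without. A match describes the letters in the window and nothing about binding.

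The values are intensities that the authors deposited on a linear scale, between 8 and 21216 for control and between 8 and 21365 for Oma1-deficient fat. Their median was 83 over both arrays pooled. Each difference is log2(intensity + 1), Oma1-deficient minus control, a scale that slightly understates dim genes. Of all genes, 11393 had a mean over both arrays at or above the median of 83, and these served as background. All 28 measured members passed, and each did so on both arrays. The background was not centred on 0: its median difference was -0.06, with quartiles at -0.18 and 0.07. Within a gene, 1 probe set's log2 difference had an SD of 0.17, taken from 545 genes with 2 probe sets. The gap between 2 probe sets has a larger SD. This SD between probe sets covers disagreement on the same RNAs and not the spread between mice.

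Transcripts of cholesterol synthesis read lower in the Oma1-deficient array along most of the pathway, by a modest amount. Of 18 measured synthesis enzymes, 17 were lower and 1 was higher, while 62.3% of all background genes were lower. Their median difference was -0.21, a fold of 1.16, against -0.06 for the background. For 5 of the 18 (Cyp51, Sc5d, Tm7sf2, Lss and Ebp) the control level was at least 25% above the Oma1-deficient level, as it was for 9.74% of the background genes; this and the reverse are called the 25% size below. None of the 18 was 1.5-fold lower, a size that 1.74% of the background genes reached. Among brighter genes, at or above the upper quartile of intensity, 65.6% were lower and 7.99% were lower by the 25% size. Of the 18 enzymes, 12 were lower by more than the SD of 0.17 between probe sets. That size was common in the background: Hmgcs1, the enzyme nearest to it, had 27.5% of the background genes below it. Of the 18, 15 lay below the background median, which splits the background evenly.

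**Figure D1:**
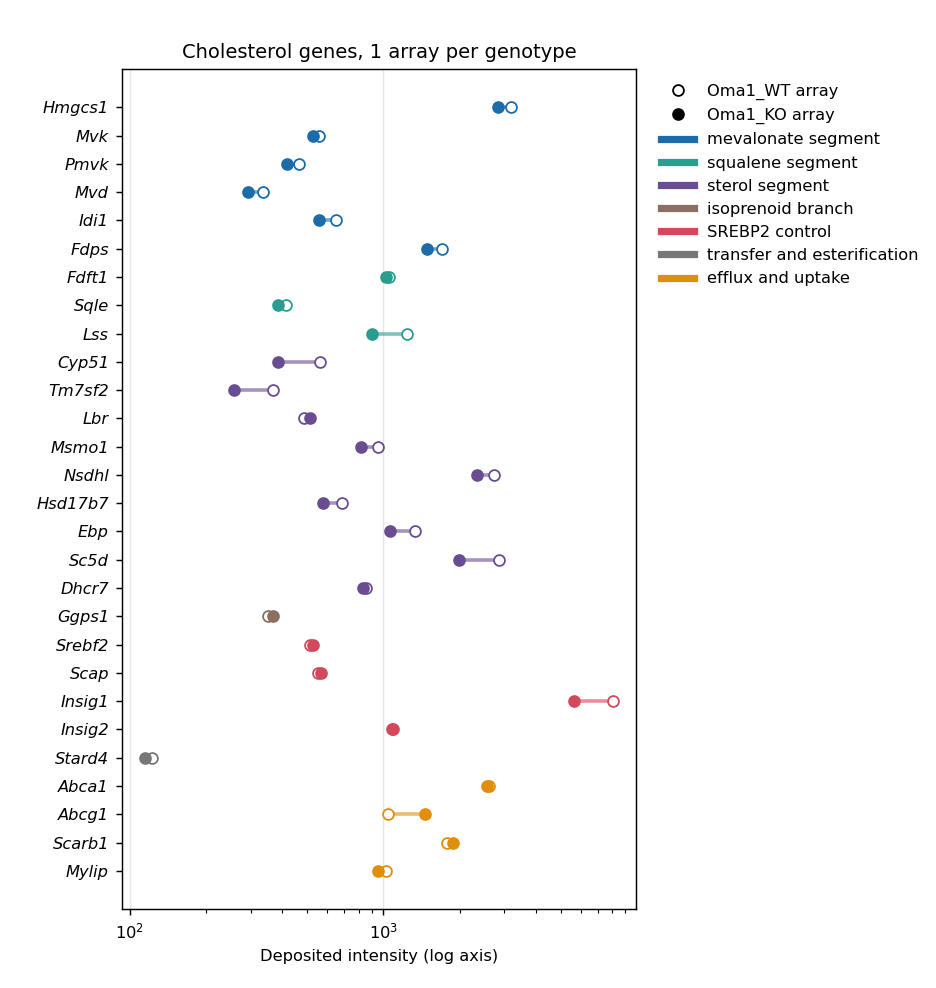
Deposited intensity (log axis) of the 28 measured members in the control array (open circles) and the Oma1-deficient array (filled circles), 1 array each, coloured by role and without error bars since there are no replicates. The longest lines to the left are those of Cyp51, Sc5d, Tm7sf2, Lss and Insig1, and the longest to the right is that of Abcg1.

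In the mevalonate segment 6 of 6 measured enzymes were lower, within a narrow range of log2 differences from -0.21 to -0.07. Hmgcs1, the synthase that condenses acetoacetyl-CoA with acetyl-CoA, read 3187 in the control and 2833 in the Oma1-deficient array (-0.17). Mevalonate kinase Mvk read 556 and 530 (-0.07), close to the background median. The next enzymes, phosphomevalonate kinase Pmvk and the decarboxylase Mvd, read 465 and 417 (-0.16), and 336 and 292 (-0.20). All of these steps therefore sat between the background median and the lower quartile or slightly beyond it.

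Idi1, the isomerase that interconverts the isoprenoid units, had 2 probe sets that read 662 and 569, and 636 and 549 (-0.22 and -0.21). Their differences were nearly equal, so the gene's value did not depend on which was used. Fdps, which makes farnesyl diphosphate, read 1701 and 1492 (-0.19). At that product the pathway branches, and Ggps1, which leads to geranylgeranyl groups for proteins and away from sterols, read 351 and 367 (0.06). It was among the 6 members with a higher value, as were 36.6% of background genes.

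The squalene segment was uneven. Fdft1, squalene synthase, had 1 probe set at 1145 and 1046 (-0.13) and another at 972 and 999 (0.04), which disagreed in direction, and its mean difference of -0.05 was near the background median. Sqle, squalene epoxidase, a rate-controlling oxygenase, read 412 and 384 (-0.10). Lss, which closes the ring to lanosterol, read 1241 and 904 (-0.46), and 467 of the 11393 background genes had a lower difference. The Lss level was thus 27.1% below control, against 6.78% for Sqle in the step before it.

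The sterol segment had the lowest median of the segments, -0.24, with 8 of 9 enzymes lower, beside -0.18 for the mevalonate and -0.10 for the squalene segment. Cyp51, the demethylase that acts first on lanosterol, read 561 in the control and 384 in the Oma1-deficient array, a 1.46-fold lower level (-0.55). It had the lowest difference of all members, and 251 background genes lay below it. Sc5d, the desaturase near the end of the pathway, read 2873 and 1993 (-0.53), 1.44-fold lower, with 281 background genes below it. Each probe set has its own response to RNA, so an intensity here is set against the same probe set on the other array and does not rank genes by amount.

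Tm7sf2 and Lbr encode proteins with the same reductase activity on the sterol ring. Tm7sf2 read 366 and 257 (-0.51), 1.42-fold lower. Lbr, which is also the lamin B receptor of the nuclear envelope, read 486 and 512 (0.08) and was the single synthesis enzyme with a higher value. The difference of Lbr was 0.58 above that of Tm7sf2 on the log2 scale, each read from 1 probe set. That gap was larger than the SD of 0.17, which holds for 1 probe set and is too small for a gap between 2. There was no measure of the spread between mice.

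The 3 enzymes that together remove methyl groups from the sterol ring were lower by almost the same amount. Msmo1, the oxidase, read 950 and 817 (-0.22), Nsdhl, the dehydrogenase, 2745 and 2335 (-0.23), and Hsd17b7, the ketoreductase, 687 and 581 (-0.24). The SD of these 3 differences was 0.01. Each rests on 1 probe set, for which the SD was 0.17, so their closeness is finer than the arrays resolve. Erg28, which tethers this complex in the membrane and is no member, read 1312 and 1164 (-0.17); it was singled out after its value was seen.

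Of the last enzymes, Ebp, the sterol isomerase, read 1336 and 1062 (-0.33), 1.26-fold lower, and was the member just inside the 25% size. Hsd17b7, at 1.18-fold, was the enzyme just outside it. Dhcr7, the final reductase on one arm of the pathway, read 858 and 830 (-0.05), at the background median. Neither end of the pathway was therefore the lowest; the lower values lay from Lss through Cyp51 and Tm7sf2 to Ebp and Sc5d.

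**Figure D2:**
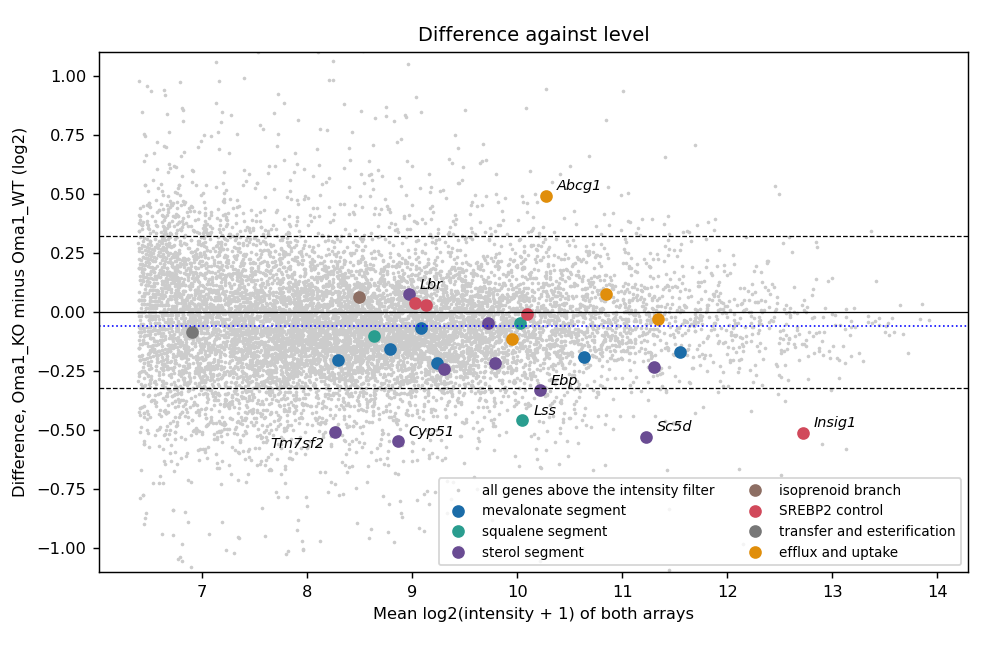
Difference of the Oma1-deficient minus the control array (log2) against mean log2(intensity + 1), for all 11393 genes above the intensity filter (grey; 43 genes beyond 1.1 in either direction are not drawn) and the 28 members (coloured by role). Dashed lines mark the 25% size and the dotted line the background median of -0.06; 6 members lie below the lower dashed line and Abcg1 above the upper one.

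Among the controls of SREBP2, Insig1 alone was lower by the 25% size. It read 8059 in the control and 5654 in the Oma1-deficient array, 1.43-fold lower (-0.51), and 319 background genes had a lower difference. Insig1 is itself a target of SREBP2, whereas its relative Insig2, which performs the same retention of Scap, is not induced that way. Insig2 read 1094 and 1087 (-0.01), so its difference lay 0.50 above that of Insig1.

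The transcription factor and its escort did not share this. Srebf2, which encodes SREBP2, read 513 and 527 (0.04), and Scap read 555 and 566 (0.03). Both lay above the background median of -0.06 and within the SD between probe sets. The array measures transcripts, and SREBP2 cleavage is not seen by it. Stard4, a carrier of cholesterol between membranes and an SREBP2 target, read 122 and 115 (-0.08), near the background median.

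Efflux genes did not share the lower values of synthesis. Abcg1, which passes cholesterol to high-density lipoprotein, read 1042 in the control and 1465 in the Oma1-deficient array (0.49), a 1.41-fold higher level, and 211 background genes had a higher difference. It was the 1 of 28 members higher by the 25% size, which 4.99% of background genes reached in that direction; 0 members were 1.5-fold higher, beside 1.23% of the background. Abca1, which loads cholesterol onto lipid-poor apolipoprotein, is likewise a target of liver X receptors and read 2616 and 2563 (-0.03). The difference of Abcg1 was thus 0.52 above that of Abca1.

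Scarb1, the high-density lipoprotein receptor, which moves cholesterol in both directions, read 1787 and 1886 (0.08). The median of Abca1, Abcg1 and Scarb1 was 0.08, which lay 0.29 above that of the synthesis enzymes, or 0.44 above it with Abca1 and Abcg1 alone. The efflux value rests on 3 genes, of which 1 stands apart. As the middle of the 3, it is the value of Scarb1 itself, which also takes up cholesterol. Mylip, a ubiquitin ligase induced by liver X receptors that degrades lipoprotein receptors, read 1027 and 949 (-0.11). So of the 3 members named here as such targets, Abcg1 was higher and Abca1 and Mylip were near the background median.

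Taking every member, 22 of 28 were lower and 6 higher, 6 were lower by the 25% size (the 5 enzymes and Insig1) and 0 were at least 1.5-fold lower. In the background 62.3% of genes were lower, 36.6% were higher, 9.74% were lower by the 25% size and 1.74% were at least 1.5-fold lower. The median over the 28 was -0.14, beside -0.06.

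Other genes of the pathway, taken from lists by function, lay close to the background. Of 80 genes on these lists 67 were measured. Of these 39 were lower and 28 higher, 2 were lower and 3 higher by the 25% size, with a median of -0.06. The 59 that passed the intensity filter, as all background genes did, had 36 lower and 23 higher. Among them 2 were lower and 3 higher by the 25% size, with a median of -0.08. In the background 62.3% of genes were lower, and 9.74% were lower and 4.99% higher by the 25% size. Of 6 further synthesis genes, among them electron donors and suppliers of acetyl groups, 4 were lower. Cyb5r3, a reductase that supplies electrons to desaturation and demethylation, read 3291 and 4329 (0.40), while Cyb5b, an electron carrier of the mitochondrial outer membrane, read 4311 and 3517 (-0.29). The electron donors thus differed in opposite directions.

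Of 9 further genes of SREBP control 5 were lower and 0 reached the 25% size. Erlin1, a membrane protein that restrains SREBP release, read 377 and 308 (-0.29), and Ubxn8, an adaptor of the Vcp ATPase at the endoplasmic reticulum, 771 and 638 (-0.27). Of 10 genes of uptake and lysosomal release 5 were lower and 5 higher, with a median of 0.01. Msr1, a scavenger receptor of macrophages, read 654 and 814 (0.32), and Vldlr, a lipoprotein receptor of adipocytes, 1232 and 1065 (-0.21).

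In the list of transfer between membranes and ester hydrolysis, 7 of 13 were lower, with a median of -0.03. Scp2, a peroxisomal thiolase and sterol carrier, had the highest value at 577 and 842 (0.54), and Tspo, a mitochondrial outer membrane protein that binds cholesterol, read 3559 and 2892 (-0.30). Of 12 further efflux genes and liver X receptor targets, 6 were lower and 6 higher, with a median of -0.00. Apoe, an acceptor of cholesterol made by macrophages and adipocytes, read 9365 and 11864 (0.34), and Nr1h3, which encodes a liver X receptor, 1185 and 980 (-0.27). The receptor and the apolipoprotein therefore lay on opposite sides of the background.

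**Figure D3:**
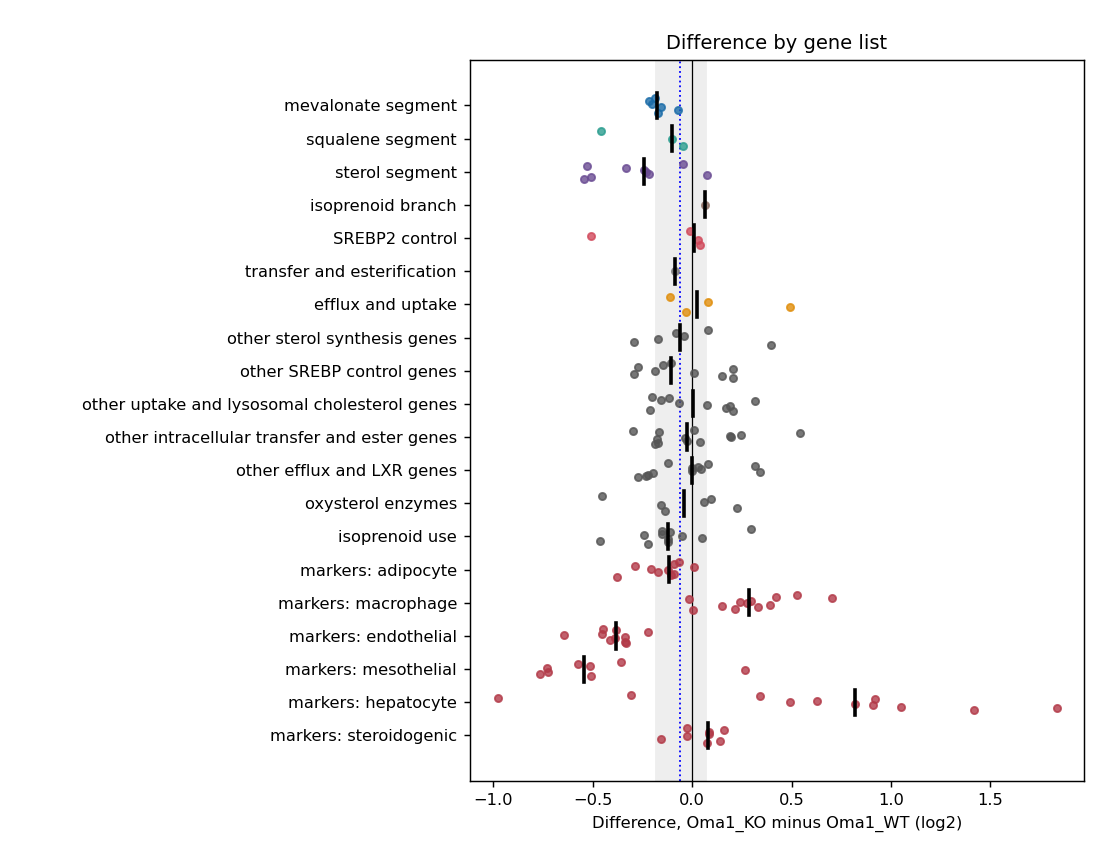
Difference of the Oma1-deficient minus the control array (log2) for each measured gene (points) by list, with the list median (black bar), the span between the quartiles of the background genes, -0.18 to 0.07 (grey band) and the background median (dotted). The mevalonate and sterol segments, with medians of -0.18 and -0.24, lie left of the other pathway lists, and the endothelial and mesothelial medians, -0.38 and -0.55, lie farther left.

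Markers of the cells in fat were read in the same arrays, since bulk tissue cannot tell fewer cells of a type from less RNA per cell. No marker was listed at 0. All 10 measured adipocyte markers passed the intensity filter, with Cidec, a lipid droplet protein, at 10771 and 9316 and Cd36, a fatty acid receptor, at 9760 and 9333. Cd36 and Lipe were also on the other pathway lists. Of these 10 markers 9 were lower, with a median of -0.12 and a summed intensity of 65079 in the control and 58275 in the Oma1-deficient array. The synthesis enzymes summed to 20464 and 17204, and their median of -0.21 was lower than that of the adipocyte markers. Whether adipocyte content had a part in the synthesis values was not tested.

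Most macrophage markers were higher, as was Abcg1, which macrophages express, while the other exporter, Abca1, was not (-0.03). Of 12 markers 11 were higher, with a median of 0.29 and sums of 34587 and 41117; C1qb, a complement subunit, read 6733 and 8153, and Lyz2, lysozyme, 6625 and 8132. The part of macrophages in the values of Abcg1, Abca1, Msr1 and Apoe was not tested. Endothelial markers were lower in 10 of 10, with a median of -0.38 and sums of 12076 and 9265, Cdh5, vascular cadherin, with 3067 and 2425 and Egfl7 with 1683 and 1232 among them. Mesothelial markers were lower in 7 of 8, with a median of -0.55 and sums of 2586 and 1761, led by Upk3b at 773 and 455 and Lrrn4 at 395 and 238. The part of endothelium and mesothelium in the synthesis values was not tested.

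Hepatocyte markers were higher in 9 of 11, with a median of 0.82 and sums of 10231 and 11796. Alb, albumin, read 1692 and 4523, but Cyp2e1, a cytochrome P450 that is also abundant in fat, 6384 and 3237. Cyp2e1 made up most of the control sum, so the sums lie closer together than they would without it. The part of liver transcripts in the members' values was not tested. Of 8 markers of steroid-making tissue, such as adrenal or gonad, 5 were higher and 3 lower, with a median of 0.08 and sums of 441 and 451, and 1 of the 8 passed the intensity filter. Among them Fdx1 read 102 and 100 and Nr5a1 77 and 86. The part of such tissue in the members' values was not tested.

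Under other scalings the synthesis median stayed below the efflux median. After quantile normalisation the synthesis median was -0.16, after loess correction -0.15 and after centring -0.13, where the background median itself was -0.01, -0.01 and 0.01. Centring set each array's own median level of the background genes to 0, which need not set the median of their differences to 0. The synthesis enzymes lower by any amount numbered 15, 15 and 14 of 18, beside 52.2%, 52.5% and 46.9% of the background. Ebp left the 25% size in all 3, so 4 enzymes remained there, beside 7.04%, 7.36% and 6.06% of the background. Of all background genes past the 25% size in either direction, 66.1% were lower as deposited, but 52.4%, 54.3% and 43.1% under these scalings. Directions of Mvk, Fdft1, Dhcr7, Insig2 and Abca1, all within 0.07 of 0, turned under at least 1 of them.

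**Figure D4:**
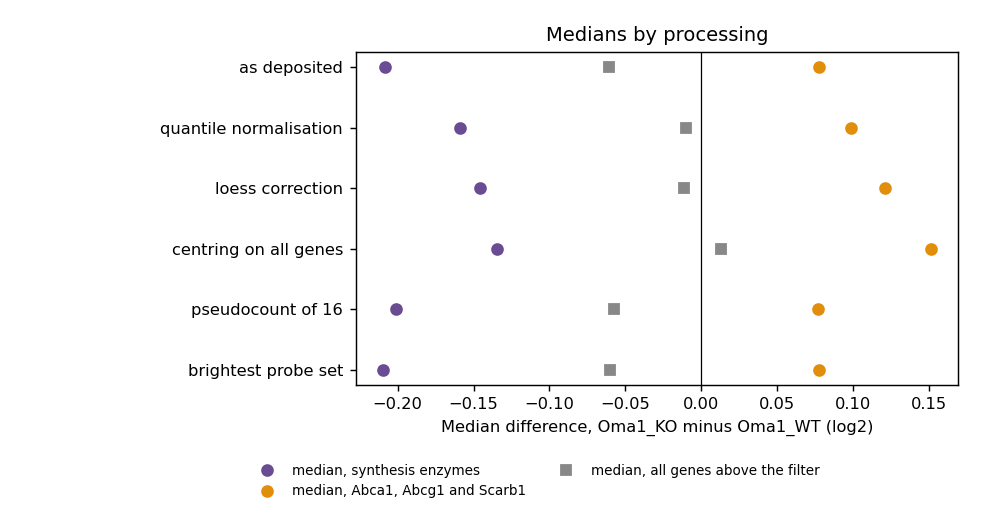
Median log2 difference of the 18 synthesis enzymes (purple), of Abca1, Abcg1 and Scarb1 (orange) and of all genes above the intensity filter (grey squares) as deposited and under 5 alternatives. The synthesis median stays between -0.21 and -0.13 and left of the grey square, and the efflux median between 0.08 and 0.15. The efflux median shown is the value of Scarb1 in every setting.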

How the data were processed

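Per the labels, RNA was extracted with Trizol and biotinylated cRNA was put on Affymetrix Mouse Gene 1.0 ST arrays. The deposited table holds linear intensity values as whole numbers; how they were background-corrected, summarised and scaled is not given in the sources used here. Of 35512 probe sets, 21789 had a single symbol in GEO's platform annotation and were used, 1621 had several and 12102 had none. Intensities were used as log2(intensity + 1), averaged over the probe sets of a gene, without further normalisation. Of the members, 26 had 1 probe set and 2 had 2. No detection call was used.

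Members and gene lists were chosen with earlier results of these data known, so counts over them are descriptions. All members are named; of each other pathway list the 2 genes with the largest absolute difference above the filter, and of each marker list the 2 brightest in control, are named. A 25% size (one array at least 25% above the other) and a 1.5-fold size take the place of a test. The number of arrays limits the precision. Alternatives were quantile normalisation, loess (fraction 0.3), centring, a pseudocount of 16, the brightest probe set and other filters. The procedure was tested on simulated data with planted shifts larger than the difference of any member, so that test does not cover differences of the members' size. Promoter windows are RefSeq's, GRCm38.p6; the array values name no build. Python 3.11.15, numpy 2.4.6, pandas 2.3.3, statsmodels 0.14.6 and matplotlib 3.10.9 were used.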

Additional observations from a re-analysis of the deposited data

How the results depend on the processing

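No paired analysis was possible because each group holds 1 array, and leaving out a replicate was not possible for the same reason. All alternatives were planned. The medians of synthesis and efflux and the difference between them kept their direction under each alternative tried. Their size moved by less than the SD of 0.17 between probe sets, but in part by over 1.5 times. The efflux median went from 0.08 to 0.12 with loess, 0.15 with centring and 0.23 with Abca1 and Abcg1 alone, the synthesis median from -0.21 to -0.13 with centring, and their difference from -0.29 to -0.44 with Abca1 and Abcg1 alone. The count of enzymes lower by the 25% size was 4 or 5, and that of members at least 1.5-fold lower was 0 throughout. Both choices of members by the intensity filter left the values as they were, since all 28 pass. No member past the 25% size changed sign. Counts over all genes moved more. Centring gave 690 genes lower and 910 higher by the 25% size in place of 1110 and 569, and 127 at least 1.5-fold lower in place of 198. With no intensity filter 1367 were higher by the 25% size and 219 by 1.5-fold, in place of 569 and 140. Raising the filter to the upper quartile, which leaves fewer genes to count, gave 462 lower and 202 higher by the 25% size, and 81 and 52 by 1.5-fold. Probe sets near the filter intensity are closest to background signal and the least certain.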

Other observations

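Isoprenoids that leave the pathway are used to attach lipids to proteins, to build dolichol and to build ubiquinone. Of 11 measured genes of these uses 9 were lower in the Oma1-deficient array as deposited, with a median of -0.12 on the log2 scale. Of all genes above the intensity filter, 62.3% were lower as deposited. After centring 46.9% of those genes were lower, and this list was not recounted there. Fntb, a subunit of protein farnesyltransferase, read 188 and 136 (-0.46). Coq2, which joins the isoprenoid tail to the ubiquinone ring in mitochondria, went the other way at 658 and 807 (0.29).

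Of 6 oxysterol enzymes 3 were lower and 3 higher, and only 3 passed the intensity filter. Cyp27a1, the mitochondrial sterol hydroxylase, read 900 and 1053 (0.23), and Cyp39a1, an oxysterol hydroxylase, 158 and 115 (-0.45). Neither list has a replicate check.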
